A study of Phaseolus vulgaris with 12 samples.

Results

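The genes described here were 3 cellulose synthase genes of common bean (Phaseolus vulgaris), PHAVU_005G116200g, PHAVU_005G116500g and PHAVU_006G058400g, out of 27996 genes listed in each library. They were taken by identifier because the study named them as cellulose synthases among genes that differed between its 2 seed coatings under drought. They were therefore selected on measured values of that comparison, which is given below as a description with no test. The deposited tables pair none of the 3 identifiers with a name, and 0 of the 27996 identifiers matched the reference gene table, so that the role of each gene rests on the study's own naming.

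Cellulose synthases are membrane proteins that join glucose units from UDP-glucose into the glucan chains of cellulose. Several different synthase proteins assemble into a complex in the plasma membrane, and the chains it releases form the microfibrils that give the plant cell wall its tensile strength. In angiosperms separate sets of synthases serve the primary wall of growing cells and the secondary wall of vessels and fibers. Whether each bean gene belongs to either set, or makes cellulose at all, is not known from the data used here. In leaves, cellulose is laid down as the blade expands and its veins mature.

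All plants were of the genotype Dwarf messi, and RNA was taken from trifoliate leaf tissue, each replicate being a pool of 5 plants. The 4 groups, with 3 samples each, were drought 6PP, drought polymer, well-watered 6PP and well-watered polymer. 6PP (6-pentyl-alpha-pyrone) is a volatile compound made by Trichoderma fungi; it was coated onto seeds at 114 mM in a carrier polymer, and the other seeds received the polymer and water alone. Drought meant 16 days without irrigation, up to wilting. How watering was assigned to the growth chambers is not given in the sources used here, and the part of the chamber in any drought difference was not tested. The study asked whether the 6PP coating alters the response of the leaf to water deficit.

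Of the 12 samples, 10 were used, and drought 6PP was represented by 1 library, replicate 3. The table of drought 6PP replicate 2 that matched the other libraries in size was identical to replicate 3 in all 27996 genes and was counted with it as 1 sample. Its other table held 1033823623 gene reads, 18.6 times the deepest of the libraries used, and the replicate 1 deposit held 12 tables on other gene identifiers with no sample labels; neither was used. The 10 libraries held 39974999 to 55648172 gene reads. The drought 6PP library had the highest share of reads in introns, 8.00%, against 5.28 to 6.08% in the drought polymer libraries.

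The 6 light-harvesting genes taken as leaf markers summed to 534.5 TPM in the drought 6PP library, 1645 to 2794 TPM in the drought polymer libraries, 14047 to 16328 TPM in the well-watered 6PP libraries and 14458 to 14982 TPM in the well-watered polymer libraries. TPM is a transcript level that takes account of exon length and depth. Each of the 6 markers had less TPM in the drought 6PP library than in any drought polymer library. In read counts scaled to depth, 9862 of the 22398 genes tested also lay below all drought polymer libraries. The markers themselves varied with drought: 5 of the 6 were called lower in polymer plants by the criteria given below, against 7.2% of all genes tested. The 4 seed lectin and leghemoglobin genes, which mark other organs, had at most 9 reads in a library. In leaf tissue sequenced in bulk, fewer cells of a type and less RNA per cell cannot be told apart.

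PHAVU_005G116200g lay on chromosome 5 at 33580071 to 33583871, on the plus strand, with 9 exons over 3801 bases. PHAVU_005G116500g lay on the same chromosome and strand at 33699932 to 33718365, with 17 exons over 18434 bases, so that 116060 bases separated both genes. PHAVU_006G058400g lay on chromosome 6 at 17509416 to 17514364, on the minus strand, with 8 exons over 4949 bases. These positions are those of the deposited tables, which name no assembly; the study's methods name the BAT93 genome.

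In well-watered leaves the 3 genes kept 1 order of levels in every library, with PHAVU_005G116200g highest and PHAVU_005G116500g lowest. PHAVU_005G116200g averaged 81.4 ± 19.2 TPM in well-watered 6PP leaves and 88.2 ± 7.84 TPM in well-watered polymer leaves (SD, n = 3 each). PHAVU_006G058400g averaged 41.9 ± 8.04 TPM and PHAVU_005G116500g 4.93 ± 1.29 TPM in well-watered 6PP leaves, against 48.0 ± 1.99 TPM and 5.01 ± 0.70 TPM in well-watered polymer leaves. Each gene's libraries of both coatings overlapped in range.

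**Figure D1:**
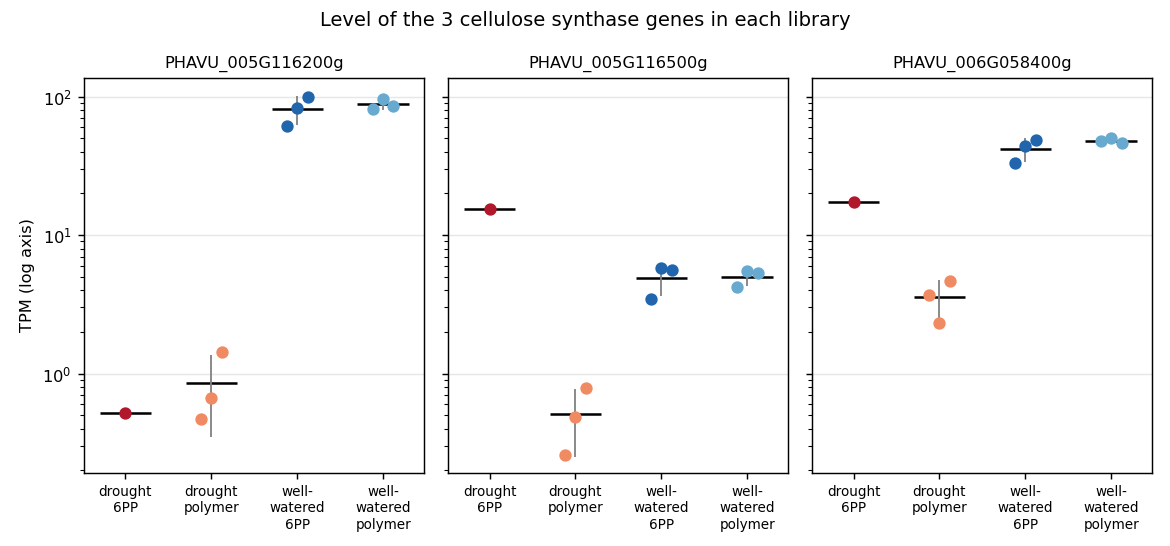
Level of each cellulose synthase gene in each library, in TPM on a log axis, with 1 point per library, a black bar at the group mean and a grey line of 1 SD where a group has 3 libraries. All 3 genes were lower in drought polymer than in well-watered polymer libraries, and the single drought 6PP library lay above the well-watered 6PP libraries for PHAVU_005G116500g, between the drought polymer and the well-watered libraries for PHAVU_006G058400g, and among the drought polymer libraries for PHAVU_005G116200g.

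The 6PP coating was compared with polymer in well-watered plants, whose libraries played no part in choosing the genes. PHAVU_005G116200g had 61.3, 83.3 and 99.6 TPM in well-watered 6PP leaves, against 81.8, 96.9 and 85.7 TPM in well-watered polymer leaves. PHAVU_005G116500g had 3.45, 5.77 and 5.58 TPM in well-watered 6PP leaves and 4.21, 5.51 and 5.31 TPM in well-watered polymer leaves. PHAVU_006G058400g had 33.1, 43.8 and 48.8 TPM in well-watered 6PP leaves and 47.6, 50.1 and 46.2 TPM in well-watered polymer leaves. For all 3 genes well-watered 6PP replicate 1 was the lowest of the 6 libraries.

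No cellulose synthase gene passed the test between coatings in well-watered leaves, and neither did any of the 22398 genes tested (0% called). A gene was called when its log2 fold change was at least 0.6 in size and both adjusted p-values passed. These were a false discovery rate (FDR, by Benjamini-Hochberg) of at most 0.01 and a Bonferroni p of at most 0.05. Each was computed from the p-values of edgeR's quasi-likelihood test. In all, 1232 genes had a p under 0.05 before adjustment, the smallest FDR was 0.465, and DESeq2 and edgeR's likelihood ratio test each called 4 genes under the same criteria. The log2 fold change of 6PP over polymer was -0.04 for PHAVU_005G116200g (95% interval -0.60 to 0.51, FDR 0.988 in edgeR), -0.05 for PHAVU_005G116500g (-0.65 to 0.55, FDR 0.983) and -0.12 for PHAVU_006G058400g (-0.54 to 0.30, FDR 0.946). The intervals left room for changes down to -0.65 and up to 0.55 on the log2 scale. In simulated counts this test called 27% of the genes changed by 1 on the log2 scale and 82% of those changed by 2. The study's own analysis did report genes that differed between the coatings in well-watered plants. A count of 0 calls therefore does not show that the coating had no effect.

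Drought lowered all 3 cellulose synthase genes in leaves of polymer-coated plants, by 107-fold for PHAVU_005G116200g, 13.9-fold for PHAVU_006G058400g and 11.6-fold for PHAVU_005G116500g. Of all genes tested, 7.2% were called lower in this comparison (1613 of 22398, beside 1147 called higher), and all 3 members were among them. The drought polymer libraries were also the baseline of the comparison on which the study chose the genes, so that this result is not independent of the choice. With drought polymer replicate 2 or replicate 1 left out, the calls in both directions fell to 1668 or 1815 genes, against 2760 with all libraries, and all 3 members stayed called without replicate 1.

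PHAVU_005G116200g had 0.468, 0.669 and 1.44 TPM in drought polymer leaves, against 81.8, 96.9 and 85.7 TPM in well-watered polymer leaves. It was read 33, 45 and 96 times in the drought polymer libraries and 5668, 8998 and 6326 times in the well-watered polymer libraries, without overlap. Its log2 fold change was -6.74 ± 0.34 (SE, FDR 3.92e-08 in edgeR's quasi-likelihood test), which ranked 187 from the lowest of all 22398. Its level in drought polymer leaves was 0.975% of that in well-watered polymer leaves.

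PHAVU_006G058400g had 3.72, 2.32 and 4.67 TPM in drought polymer leaves, against 47.6, 50.1 and 46.2 TPM in well-watered polymer leaves. The groups were again far apart, with drought polymer libraries at 7.44% of the well-watered mean. The log2 fold change was -3.79 ± 0.22 (SE, FDR 9.60e-08 in edgeR's quasi-likelihood test).

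PHAVU_005G116500g had 0.259, 0.488 and 0.782 TPM in drought polymer leaves, against 4.21, 5.51 and 5.31 TPM in well-watered polymer leaves. These values came from 30, 54 and 85 reads in the drought polymer libraries and 603, 937 and 679 reads in the well-watered polymer libraries. The groups did not overlap, and the log2 fold change was -3.54 ± 0.32 (SE, FDR 3.07e-06 in edgeR's quasi-likelihood test). Its call was lost through the Bonferroni criterion without drought polymer replicate 2 (-3.54), with only the polymer libraries fitted (-3.56) and in limma on log2(TPM + 1) (-2.00) and on log2(TPM + 0.1) (-3.15), at an FDR of at most 7.15e-05 over all 20 alternatives.

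Under drought, the 6PP library lay above all polymer libraries for PHAVU_005G116500g and PHAVU_006G058400g, and within the range of the polymer libraries for PHAVU_005G116200g. This is the comparison behind the choice of genes, and with 1 drought 6PP library it has no replicate check. PHAVU_005G116500g had 15.4 TPM in the drought 6PP library, from 1941 reads, against 0.259, 0.488 and 0.782 TPM in the drought polymer libraries. The level in the drought 6PP library was 30.2 times the drought polymer mean.

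PHAVU_006G058400g had 17.5 TPM in the drought 6PP library, from 1366 reads, against 3.72, 2.32 and 4.67 TPM in the drought polymer libraries, 4.90 times their mean. PHAVU_005G116200g had 0.516 TPM in the drought 6PP library, from 36 reads, against 0.468, 0.669 and 1.44 TPM in the drought polymer libraries. Hence 2 of the 3 members lay at least 0.6 on the log2 scale above the drought polymer mean and above all 3 libraries, as did 18% of the genes tested. On log2 CPM the differences from that mean were 5.44 for PHAVU_005G116500g, 2.67 for PHAVU_006G058400g and -0.27 for PHAVU_005G116200g. The study lists all 3 cellulose synthase genes as up-regulated with 6PP under drought. For PHAVU_005G116200g the 1 drought 6PP library used here did not show that direction. The higher intron share and the lower leaf marker level of the drought 6PP library stood beside these differences, and their part in them was not tested.

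**Figure D2:**
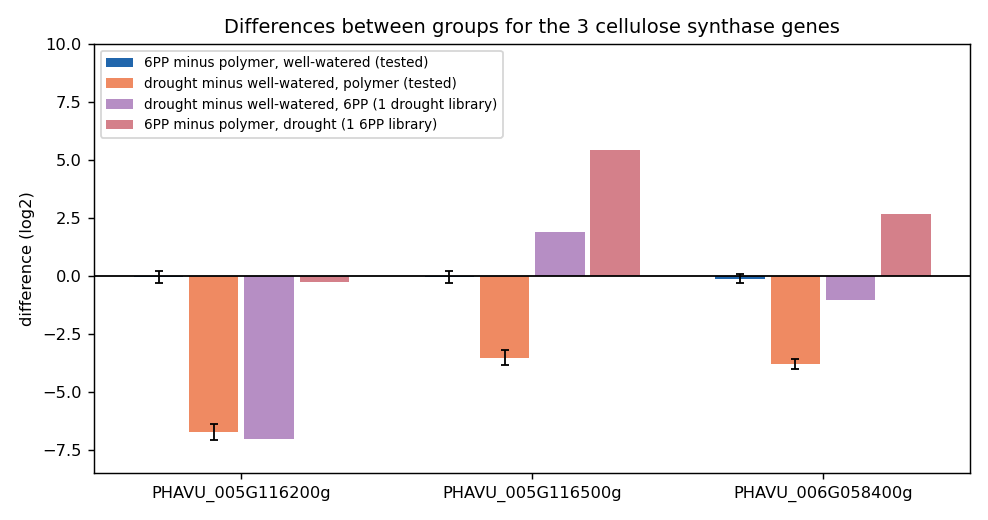
Log2 differences between groups for each cellulose synthase gene, with bars starting at 0 and error bars of 1 standard error for the comparisons with 3 libraries on each side. Both well-watered groups differed by 0.12 or less in size, all 3 genes were lower under drought in polymer plants, and PHAVU_005G116500g alone of the 3 was higher under drought in 6PP plants (1.90, 1 drought library, no test).

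Within 6PP-coated plants the 3 genes parted under drought, again as a description of 1 drought library. PHAVU_005G116200g had 0.516 TPM in the drought 6PP library, against 61.3, 83.3 and 99.6 TPM in well-watered 6PP leaves, a log2 difference of -7.04. PHAVU_006G058400g had 17.5 TPM in the drought 6PP library, against 33.1, 43.8 and 48.8 TPM in well-watered 6PP leaves, a log2 difference of -1.03. PHAVU_005G116500g had 15.4 TPM in the drought 6PP library, against 3.45, 5.77 and 5.58 TPM in well-watered 6PP leaves, a log2 difference of 1.90.

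The drought 6PP library thus lay below all well-watered 6PP libraries for PHAVU_005G116200g and PHAVU_006G058400g and above all of them for PHAVU_005G116500g. Of all genes tested, 34.2% lay at least 0.6 below all well-watered 6PP libraries and 24% at least 0.6 above all of them. As a share of the well-watered 6PP mean in TPM, the drought 6PP level was 0.633% for PHAVU_005G116200g, 41.8% for PHAVU_006G058400g and 311.8% for PHAVU_005G116500g.

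The 1613 genes called lower under drought in polymer plants were followed in the 6PP plants, as a description only, since the drought 6PP library was part of the choice of the 3 genes. The drought 6PP library lay at least 0.6 below all well-watered 6PP libraries for 1479 of them (91.7%), PHAVU_005G116200g and PHAVU_006G058400g included, and the median log2 difference of all 1613 was -2.83. For 24 of them (1.49%), among which was PHAVU_005G116500g, it lay at least 0.6 above all well-watered 6PP libraries. The remaining 110 (6.82%) did neither.

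The summed level of the 3 genes was 33.4 TPM in the drought 6PP library, 3.48 to 6.90 TPM in the drought polymer libraries, 97.9 to 154.0 TPM in the well-watered 6PP libraries and 133.7 to 152.6 TPM in the well-watered polymer libraries. The make-up of the sum was nearly constant in the 6 well-watered libraries, where PHAVU_005G116200g held 61.2 to 64.7%. That gene held 1.54% of the sum in the drought 6PP library and 10.5 to 20.9% in the drought polymer libraries.

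PHAVU_005G116500g held 46.1% of the summed level in the drought 6PP library, 5.83 to 14.0% in the drought polymer libraries, 3.53 to 4.34% in the well-watered 6PP libraries and 3.15 to 3.87% in the well-watered polymer libraries. PHAVU_006G058400g held 52.4% in the drought 6PP library and 66.7 to 83.6% in the drought polymer libraries, so that it was the highest of the 3 genes in all 4 drought libraries. In well-watered leaves it held 31.7 to 33.8% with 6PP and 32.9 to 35.6% with polymer.

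**Figure D3:**
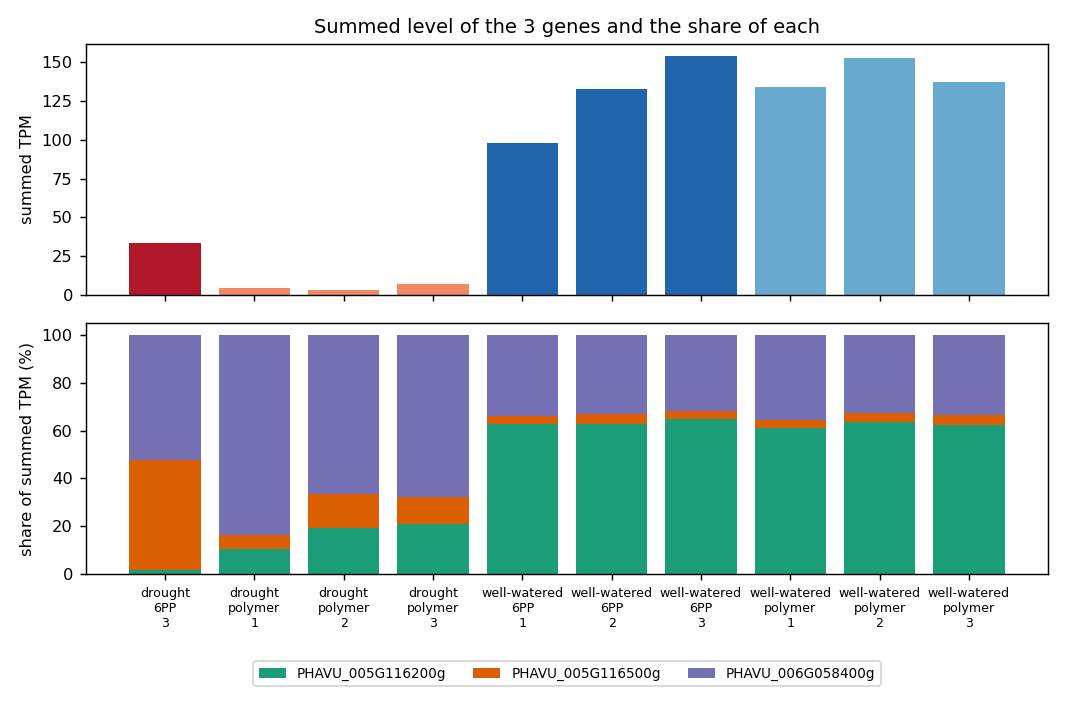
Summed TPM of the 3 cellulose synthase genes in each of the 10 libraries (top) and the share of each gene in that sum in percent (bottom). PHAVU_005G116200g made up more than 60% of the sum in every well-watered library and 1.54% in the drought 6PP library, where PHAVU_005G116500g made up 46.1%.

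Reads were placed differently for the 3 genes. Over the 10 libraries, 11.3% of the 38669 reads of PHAVU_005G116200g also matched another place in the genome, a share over 10% that was found in 445 of 24772 genes with reads (1.80%). Its counts are therefore uncertain by what those other places contributed, although on unique reads alone its log2 fold change under drought in polymer plants was -6.80. PHAVU_005G116500g shared none of its 6162 reads, and PHAVU_006G058400g had 99.9% of its reads placed uniquely. Whether the counting used strand is not given in the sources used here, so that reads from an antisense or overlapping transcript cannot be told apart from those of the genes.

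Intron reads made up 9.02% of the reads of PHAVU_005G116500g in the drought 6PP library (95% Wilson interval 7.82 to 10.4%). In drought polymer libraries they were 0 of 30, 0 of 54 and 2 of 85 reads, with upper limits of 11.4, 6.64 and 8.18%. The share was 8.48 to 9.90% in well-watered 6PP libraries, and 24.4% (21.1 to 28.0%), 13.7% and 9.28% in well-watered polymer libraries, a spread within 1 group that exceeded counting error. These intervals cover counting error only. Reads across exon junctions of PHAVU_005G116500g numbered 1114 in the drought 6PP library.

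The 2 cellulose synthase genes of chromosome 5 flank 4 genes, which all lie on the same strand and carry no name in the files. PHAVU_005G1164000g, one of these, was called lower under drought in polymer plants (-2.77 ± 0.30, FDR 1.13e-05 in edgeR's quasi-likelihood test), a call that was lost in 10 of 20 alternatives. The others, PHAVU_005G1163001g, PHAVU_005G1163000g and PHAVU_005G1164001g, had log2 fold changes of -2.28, -2.63 and -1.98 and were not called. In the 6PP plants the drought library lay 2.08 to 2.29 below the well-watered mean on the log2 scale for all 4. For PHAVU_005G116500g alone among the 6 genes of this stretch it lay above that mean, by 1.90. That gene was chosen on its drought 6PP values and the 4 genes between by position only. The choice itself therefore fixed much of this contrast. Counts were near the floor for PHAVU_005G1163001g and PHAVU_005G1164001g, with 1 and 7 reads in the drought 6PP library. The 95% interval of PHAVU_005G1163001g in polymer plants ran from -5.26 to 0.70. The shared reads were 19.8% for PHAVU_005G1163000g and 6.93% for PHAVU_005G1164000g.

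Among the 5 genes on either side of each member, PHAVU_005G116800g, 3 places beyond PHAVU_005G116500g, was also called lower (-2.39). PHAVU_005G115700g, 5 places before PHAVU_005G116200g, was called higher (1.17), a call lost in 5 of 20 alternatives. Around PHAVU_006G058400g, 9 of its 10 neighbors passed the filter on low counts and none was called in either direction. With the members themselves left out, the median log2 fold change under drought was 0.04 for the 9 neighbors of PHAVU_005G116200g, -2.13 for the 8 of 9 neighbors of PHAVU_005G116500g that passed the filter and 0.10 for the 9 of 10 around PHAVU_006G058400g, beside -0.01 over all genes tested.

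**Figure D4:**
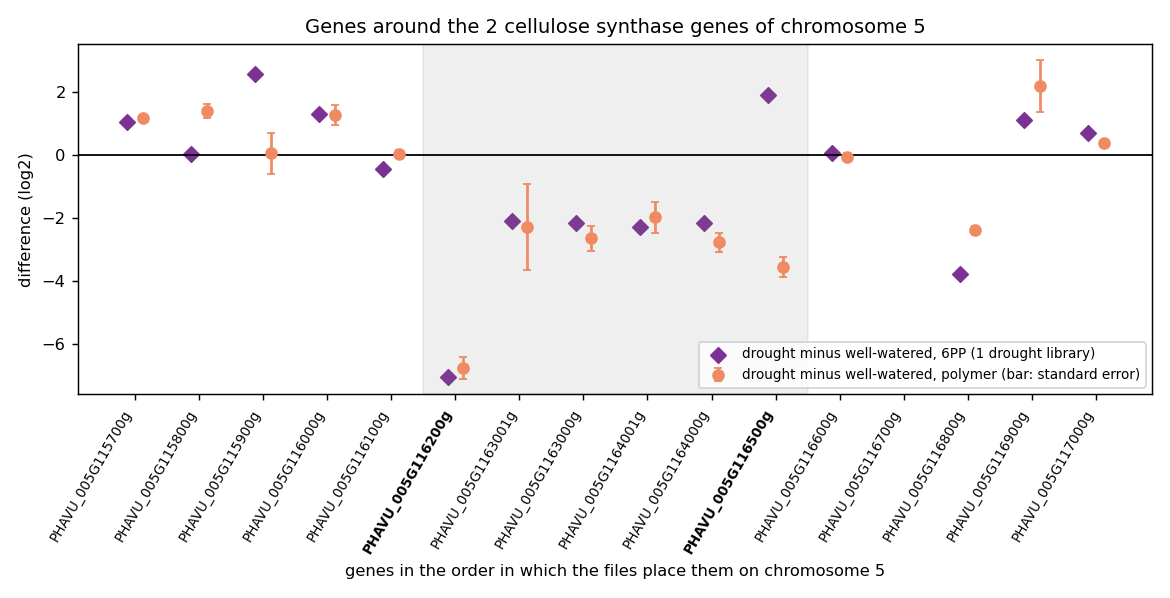
Log2 difference under drought for the genes along chromosome 5 in the order of the files, with diamonds for 6PP plants (1 drought library) and circles with a bar of 1 standard error for polymer plants; shading marks the stretch from PHAVU_005G116200g to PHAVU_005G116500g, and PHAVU_005G116700g, which did not pass the filter, has no point. All 6 genes of the stretch lay below 0 in polymer plants, and PHAVU_005G116500g alone lay above 0 in 6PP plants. PHAVU_005G116500g was chosen on its drought 6PP values, the genes between by position only.

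Other wall genes named by the study moved in both directions. Of 3 genes for hemicellulose enzymes, PHAVU_011G085200g, a xyloglucan endotransglucosylase/hydrolase that cuts and rejoins xyloglucan, was called higher under drought in polymer plants (4.11 ± 0.33) and none was called lower. Among the 22398 genes tested, 1147 were called higher and 1613 lower in this comparison. PHAVU_009G254300g, an arabinofuranosidase and xylosidase that trims side chains, had 172.5 TPM in the drought 6PP library, 5.16 ± 4.13 TPM in drought polymer, 5.82 ± 2.07 TPM in well-watered 6PP and 5.11 ± 0.74 TPM in well-watered polymer libraries (SD, n = 3). That gene, like PHAVU_005G116500g, was highest in the drought 6PP library. The study lists all 3 hemicellulose genes as down-regulated. The drought 6PP library lay below all drought polymer libraries for 2 of them, and above all for PHAVU_009G254300g, opposite to the study's direction.

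Of 6 genes of the phenylpropanoid and lignin branch, 3 were called lower under drought in polymer plants and none higher, where 7.2% of all genes tested were called lower. They were the phenylalanine ammonia-lyase gene PHAVU_007G150500g (-2.87, call lost in 4 of 20 alternatives), which opens the pathway, the 4-coumarate-CoA ligase gene PHAVU_003G147000g (-2.31, lost in 9) and the cinnamoyl-CoA reductase gene PHAVU_005G182100g (-1.87, lost in 6), which commits precursors to lignin. The median of the 6 was -1.97, beside -3.79 for the 3 cellulose synthase genes and -0.01 for all genes tested. The study lists these 6 genes as up-regulated with 6PP under drought. The drought 6PP library lay above all drought polymer libraries for 2 of them, PHAVU_001G177800g (1.15) and PHAVU_005G182100g (2.13). For the others it lay within the range of the drought polymer libraries. It lay above all of those libraries for 7943 of the 22398 genes tested. Both lists of wall genes were named by the study from these samples.

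Across the 10 libraries, which shared the drought contrast, log2 CPM of PHAVU_006G058400g had a Pearson r of 0.89 with PHAVU_005G116200g and 0.87 with PHAVU_005G116500g, and the 2 genes of chromosome 5 had an r of 0.58 with each other. The genes most like PHAVU_005G116500g were PHAVU_002G216200g, PHAVU_002G292900g and PHAVU_002G027500g (r of 0.983 to 0.986). Those most like PHAVU_005G116200g were PHAVU_002G035300g, PHAVU_009G064900g and PHAVU_002G304400g (0.998 to 0.999), and those most like PHAVU_006G058400g were PHAVU_003G082300g, PHAVU_002G150400g and PHAVU_007G102000g (0.993 to 0.996).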

How the data were processed

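Leaf RNA of 12 pools of 5 plants was sequenced, and reads were trimmed, aligned and counted by the authors in CLC Genomics Workbench 21.0.4. The deposited tables give, per gene, raw read counts (total, unique, exon, intron and exon-exon reads) and TPM, which the authors' software derived from exon reads and exon length. Groups were taken from the sample labels, and 10 libraries were used, with 39974999 to 55648172 gene reads, which sets the precision of low counts. Not used were the drought 6PP replicate 1 tables (other identifiers, no sample labels) and the larger replicate 2 table.

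Total gene reads were fitted with edgeR 4.0.16 (R 4.3.3) by the quasi-likelihood method with TMM and filterByExpr (22398 genes kept), as 4 group means. Calls needed a log2 fold change of 0.6, an FDR of 0.01 and a Bonferroni p of 0.05. Drought 6PP, with 1 library, was described as differences of log2 CPM (prior count 2) and not tested. P-values measure the spread between pools of plants. Alternatives were RLE and upper-quartile scaling, DESeq2 1.42.0, the likelihood ratio test, other filters, unique and exon reads, limma 3.58.1 on log2 TPM with 1 or 0.1 added, only the groups compared, a replicate block, an FDR of 0.05 alone and each library left out. The scripts were tested on simulated data.

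The genes named were the 3 members, 5 genes on each side of each, 9 other wall genes and 6 leaf markers that the study names, any gene with a cellulose synthase name (0 found), other-organ markers by symbol, and the 3 genes of highest correlation with each member. Members and lists were chosen with earlier results of these data known.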

Additional observations from a re-analysis of the deposited data

Results flagged for a closer look

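PHAVU_005G116500g moved in opposite directions under drought in the 2 coatings. In 6PP plants the drought library lay 1.90 above the mean of the well-watered libraries in log2 CPM and above each of them, whereas in polymer plants the mean of the drought libraries lay -3.63 from that of the well-watered libraries, each drought library below each well-watered library. The gene was chosen for its difference between the coatings under drought, and its levels in well-watered plants of both coatings overlapped, so that the choice itself fixed much of this contrast. The drought 6PP value rests on 1 library, and the difference between the coatings was not tested.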

How the results depend on the processing

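The 3 cellulose synthase genes kept the direction of their drought difference in polymer plants under all 20 alternatives, at -7.35 to -5.61 for PHAVU_005G116200g, -4.00 to -2.00 for PHAVU_005G116500g and -4.03 to -3.46 for PHAVU_006G058400g. PHAVU_005G116500g alone lost its call, with only the groups compared (-3.56), limma on log2(TPM + 1) (-2.00) or log2(TPM + 0.1) (-3.15), and without drought polymer replicate 2 (-3.54, within a range of -4.00 to -3.20 when libraries of the comparison were left out). The cause was not tested. The number of genes called in polymer plants, 2760, was 6225 with DESeq2, 6298 with the likelihood ratio test, 12588 at an FDR of 0.05 alone, and 1668 to 2130 with 1 library of the comparison left out, being 1668 without drought polymer replicate 2 and 1815 without replicate 1. Without drought polymer replicate 2 the calls of PHAVU_005G1164000g, PHAVU_005G115700g, PHAVU_007G150500g, PHAVU_003G147000g and PHAVU_005G182100g were lost as well. Those of PHAVU_005G1164000g and PHAVU_003G147000g were also lost without drought polymer replicate 1 or any well-watered polymer library, that of PHAVU_005G182100g without drought polymer replicate 1 or well-watered polymer replicate 1, that of PHAVU_007G150500g without drought polymer replicate 1, and that of PHAVU_005G115700g without well-watered polymer replicate 2 or 3. The number of genes called was 2714 without the drought 6PP library, an alternative chosen after seeing the data. In well-watered plants DESeq2 and the likelihood ratio test called 4 genes each, where the quasi-likelihood test called 0, and none of the 3 members was called under any alternative.

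On log2(TPM + 1) the drought 6PP library differed from drought polymer by 3.45 for PHAVU_005G116500g, against 5.44 on log2 CPM. For PHAVU_006G058400g the difference was 2.05, against 2.67 on log2 CPM. From well-watered 6PP it differed by -5.74 for PHAVU_005G116200g and 1.49 for PHAVU_005G116500g, against -7.04 and 1.90 on log2 CPM. The alternatives for well-watered 6PP were chosen after seeing the data. The difference of PHAVU_005G116200g from drought polymer ran from -0.64 to 0.18 and so had no fixed sign. The median of all genes in the drought 6PP against drought polymer difference was -0.09, and -0.26 and -0.37 on the TPM scales with 1 and 0.1 added.

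Samples of the same replicate number were not treated as pairs. Their deviations from the group means correlated at -0.09 to 0.16, which with so few libraries per group cannot settle whether they were paired. With a replicate block 2267 genes were called in polymer plants (PHAVU_005G116200g -6.82, PHAVU_005G116500g -3.61, PHAVU_006G058400g -3.82, all called), and 0 genes in well-watered plants. Depth limited PHAVU_005G116200g and PHAVU_005G116500g in drought polymer leaves, where they had 30 to 96 reads, and the drought 6PP group has 1 library.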
